A study of Mus musculus with 8 samples.

Results

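The 8 genes Glul, Glud1, Got1, Got2, Gpt2, Asns, Aldh18a1 and Pycr1 encode enzymes that make or use glutamine, glutamate, aspartate, alanine, asparagine and proline. They were taken by gene symbol from a table of 23366 symbols, keeping for each symbol the transcript row whose counts summed highest across the 8 libraries. All 8 were in the table, and all 8 were among the 14418 genes that passed the filter on low counts. RNA was sequenced from mouse embryonic fibroblasts, connective tissue cells grown out of embryos, of the C57BL/6 strain at passages 3 to 5. There were 4 groups of 2 libraries: cells labelled as knockouts of the histone H3K9 demethylase gene Kdm3a after 12 h of glucose starvation, wild-type (WT) cells after the same starvation, KO-labelled cells at 0 h and WT cells at 0 h. The 0 h (fed) medium was DMEM plus 10% serum, whereas the starvation medium lacked glucose and held 10% dialyzed serum. Loss of glucose, the dialyzed serum, the fresh medium and the 12 h therefore cannot be told apart, and starvation below means all of them. The allele, the number of embryos behind each group and whether replicates were separate cultures are not given in the labels, so p-values measure the spread between these libraries, which may be technical.

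Glutamine and glutamate are interconverted in cells, and Glul, glutamine synthetase, makes glutamine from glutamate and ammonia. Glutamate also gives up its nitrogen, either as ammonia through Glud1, the mitochondrial glutamate dehydrogenase, or to another carbon skeleton through aminotransferases. Got1 and Got2 are the cytosolic and mitochondrial aspartate aminotransferases, which also drive the malate-aspartate shuttle, and Gpt2 is the mitochondrial alanine aminotransferase. Asns, asparagine synthetase, joins the nitrogen of glutamine to aspartate. Aldh18a1 reduces glutamate to the precursor of proline and ornithine in mitochondria, and Pycr1 completes proline there. Asns is a textbook target of ATF4, a transcription factor made when amino acids or the endoplasmic reticulum are under stress, which binds a composite C/EBP-ATF element (CARE) in target promoters.

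The promoters that held the core letters of that element are shown because those letters are the sequence feature by which the members differed. Windows ran from 250 bases before to 50 bases after the annotated start, on the mouse build GRCm38.p6, from RefSeq, and all 8 members matched 1 window. The letters searched on both strands were TGATGNAA, the core of the CARE, and GTTACA, called NSRE-2, an element known from the human ASNS promoter. Capitals mark the matched bases. The 3 windows are chr6:7693160-7693459 on the minus strand for Asns, chr19:43524556-43524855 on the minus strand for Got1 and chr11:120643699-120643998 on the minus strand for Pycr1, each written 5′ to 3′ along its gene.
Asns: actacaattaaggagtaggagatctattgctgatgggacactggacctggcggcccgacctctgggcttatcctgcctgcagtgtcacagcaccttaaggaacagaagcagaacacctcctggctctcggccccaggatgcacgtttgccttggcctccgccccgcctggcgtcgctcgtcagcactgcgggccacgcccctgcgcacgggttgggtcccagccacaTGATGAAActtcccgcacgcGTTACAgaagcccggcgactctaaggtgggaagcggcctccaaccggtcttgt
Got1: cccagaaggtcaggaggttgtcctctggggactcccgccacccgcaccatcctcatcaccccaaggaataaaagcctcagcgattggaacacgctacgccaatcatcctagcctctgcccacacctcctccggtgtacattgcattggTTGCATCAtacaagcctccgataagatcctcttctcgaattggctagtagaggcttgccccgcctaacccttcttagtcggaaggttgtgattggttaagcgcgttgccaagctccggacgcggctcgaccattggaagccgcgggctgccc
Pycr1: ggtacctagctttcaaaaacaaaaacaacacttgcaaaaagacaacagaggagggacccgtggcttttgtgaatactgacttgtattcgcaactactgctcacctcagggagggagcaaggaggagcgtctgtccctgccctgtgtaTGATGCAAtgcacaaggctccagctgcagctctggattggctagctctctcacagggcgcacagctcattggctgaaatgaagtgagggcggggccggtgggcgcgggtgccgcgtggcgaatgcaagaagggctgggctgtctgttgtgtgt

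In the Asns window the CARE core began 23 bases before the start and GTTACA 3 bases before it, so that GTTACA ran past the start. There were 12 bases between the matches and no overlap. The Got1 match lay on the opposite strand and began 102 bases before the start, and the Pycr1 match, on the gene's own strand, began 103 bases before it. Of the 8 members 3 held the CARE core and 1 held GTTACA. Among 32851 promoter windows of the same length 3.97% held the first, 8.25% the second and 0.694% both. Asns was known as an ATF4 target and GTTACA from the human ASNS promoter, so the Asns matches are not an independent result. No match was found in the windows of Glul, Glud1, Got2, Gpt2 or Aldh18a1, which says only that these letters are not in those 300 bases. A match is a run of letters and not a measured binding site.

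**Figure D1:**
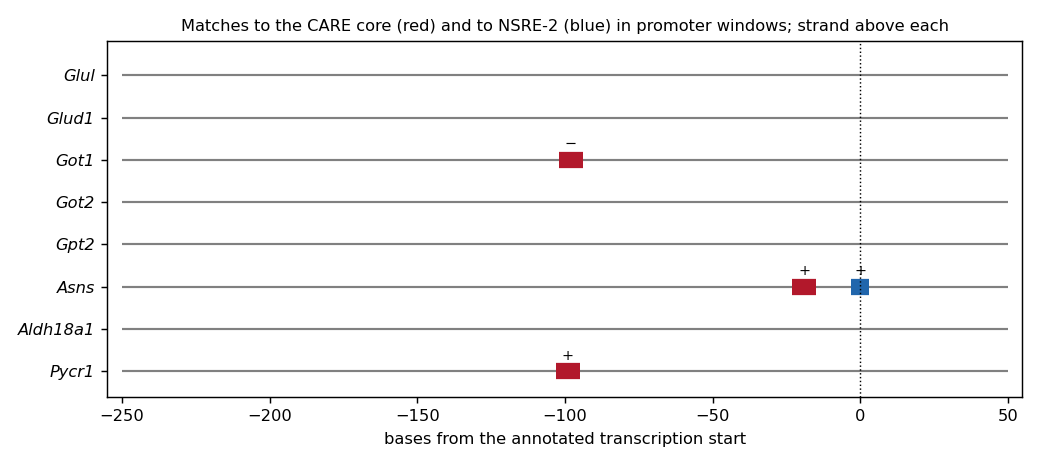
Position of the searched letters in the promoter windows of the 8 genes, in bases from the annotated start (x axis), with red bars for TGATGNAA, blue bars for GTTACA and the matched strand as a sign above each bar. Asns carried both, Got1 and Pycr1 carried the first, and the other 5 windows carried neither.

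The libraries held 45792470 and 53602289 counts in starved KO-labelled, 41019748 and 41775284 in starved WT, 52443103 and 42697301 in fed KO-labelled and 39781776 and 38407520 in fed WT cells. Kdm3a, the targeted gene, was read at 65.4 and 66.7 CPM in starved KO-labelled against 176 and 185 CPM in starved WT libraries, but at 55.2 and 55.4 CPM in fed KO-labelled against 56.1 and 56.4 CPM in fed WT libraries. A deletion within the gene need not lower a count summed over its exons. Since the fed values go against the label, each direction drawn between the genotypes rests on the label alone. Xist, which silences an X chromosome in female cells, was read at 869 to 1370 CPM in KO-labelled and 0.939 to 1.54 CPM in WT libraries, so genotype and the sex of the cells cannot be told apart. Fibroblast markers were present in each group, although Lum had 0 counts in starved WT cells. The summed level of the 9 genes ran from 5290 CPM in starved KO-labelled to 16500 CPM in fed WT libraries. Single markers differed in both directions. In fed KO-labelled against fed WT libraries Col1a1, Col1a2, Pdgfrb, Vim and Thy1 (5.88 and 6.62 against 99.3 and 103 CPM) were lower. Col3a1, Pdgfra, Lum and Dcn (52.2 and 50.6 against 2.57 and 2.25 CPM) were higher. Several other marker lists moved between groups: the summed macrophage and blood list reached 46.9 to 47.1 CPM in starved KO-labelled libraries against 2.8 to 5.76 CPM in the other groups, mostly through Cd68 (40.9 and 40.7 CPM), with Ptprc and Emr1 at 0 throughout. The sum of the 4 endothelial genes was 52.9 to 54.9 CPM in starved WT libraries against 2.29 to 5.5 CPM elsewhere, and Kdr alone made the change (54.8 and 52.8 CPM), since Pecam1, Cdh5 and Tek had at most 4 counts in a starved WT library. Muscle and hepatocyte lists stayed at or under 0.359 CPM. Their part in the results below was not tested, and in such bulk samples fewer cells of a type and less RNA per cell cannot be told apart.

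Levels are counts scaled to library size (CPM) on TMM-scaled library sizes, and log2 fold changes are given ± SE. A change is called at a Benjamini-Hochberg adjusted p under 0.05 in edgeR's quasi-likelihood test, adjusted over all 14418 genes. TMM assumes that most genes keep their level. With plain library totals in its place the median of all genes moved by -0.46 in starved against fed WT, -0.26 in starved against fed KO-labelled, 0.12 between the genotypes when fed, 0.32 when starved and 0.2 in the difference of the responses. Changes are relative to the TMM scaling, and members whose direction turned with totals are named beside their values.

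Starvation moved every member, and in both genotypes the largest rises were those of Got1, Asns, Gpt2 and Aldh18a1. In starved against fed KO-labelled cells 7 of the 8 members rose and 1, Glul, fell, with 5 rises of more than 2-fold. The background was high: 79.7% of all tested genes were called in that comparison, 39.4% higher and 40.3% lower, and 13.2% were higher and 20% lower by more than 2-fold. In WT cells 6 members rose and 2, Glul and Pycr1, fell, with 4 rises of more than 2-fold, beside 81.6% of genes called, 36.7% higher and 44.8% lower. More than 2-fold higher were 15% of genes and more than 2-fold lower 27.4%, a direction in which no member moved that far. Members' median log2 fold change was 2.46 in KO-labelled and 1.33 in WT cells, beside medians of -0.02 and -0.17 over all tested genes. With library totals the higher calls were 37% of all calls in KO-labelled and 28.2% in WT cells, instead of 49.4% and 45%, while the members' 7 against 1 and 6 against 2 did not change. The adjusted p of the members' starvation calls was at most 0.000134, that of Pycr1 in WT cells.

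**Figure D2:**
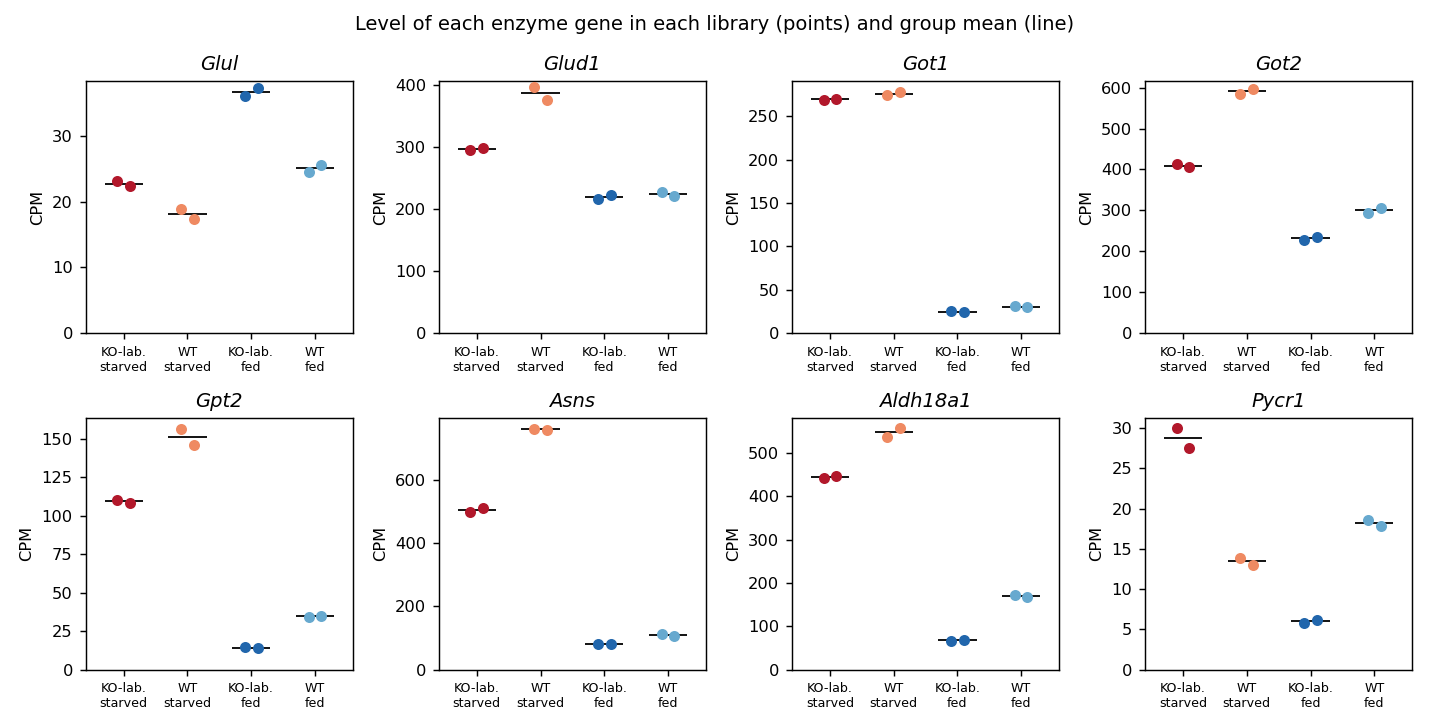
Level in CPM (y axis, from 0) of each of the 8 enzyme genes in the 2 libraries of each group (points), with the group mean as a line. Got1, Asns, Gpt2 and Aldh18a1 stood far higher in starved than in fed cells of both genotypes, Glul stood lower, and Pycr1 was highest in starved KO-labelled cells, at 30.1 and 27.6 CPM.

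Glul, glutamine synthetase, was the member that fell in both genotypes. It was read at 23.2 and 22.3 CPM in starved against 36.1 and 37.4 CPM in fed KO-labelled libraries (-0.69 ± 0.065, 1.61-fold lower). In WT cells it was read at 18.9 and 17.3 CPM when starved and 24.6 and 25.6 CPM when fed (-0.47 ± 0.072, 1.39-fold lower). No starved library overlapped a fed one of its genotype, and the KO-labelled libraries stood above the WT ones in both states, by 0.55 ± 0.065 when fed and 0.33 ± 0.072 when starved. Astrocytes and adipocytes are known for high glutamine synthetase. Of the 4 adipocyte markers Plin1 and Lep were at 0 counts in each group and Adipoq at 0 in KO-labelled cells, while Fabp4 carried a sum of 30.6 to 30.9 CPM in starved KO-labelled, 6.12 to 8.87 in starved WT, 59.8 to 60.3 in fed KO-labelled and 10.9 to 11 CPM in fed WT libraries. The 5 astrocyte and neural markers, with Aqp4 at 0 in each group, summed to 3.68 to 4.4, 46.9 to 56.2, 6.74 to 7.15 and 176 CPM in the same order of groups, and Slc1a3 alone held 160 and 161 CPM in fed WT libraries. The part of such cells in the Glul values was not tested. Glul also shares exon sequence with Teddm2 on the opposite strand in a GRCm38 annotation, and whether the counting used strand is not given in the sources used here.

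Glud1, which releases ammonia from glutamate, rose modestly. Its levels were 295 and 299 CPM in starved against 216 and 223 CPM in fed KO-labelled libraries (0.44 ± 0.033). In WT libraries they were 397 and 376 CPM when starved and 227 and 221 CPM when fed (0.79 ± 0.033). The fed groups overlapped between the genotypes, and their difference of -0.03 ± 0.033 was not called (adjusted p = 0.432). It was called higher in fed KO-labelled cells, by 0.09, with library totals. Starved KO-labelled cells stood lower than starved WT cells by 0.38 ± 0.033 (log2 fold change -0.38), which shrank to -0.06 (adjusted p = 0.0767) with totals.

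The 2 aspartate aminotransferases responded unequally. Got1, the cytosolic enzyme, was read at 269 and 270 CPM in starved against 24.9 and 24.6 CPM in fed KO-labelled libraries, a 10.9-fold rise (3.45 ± 0.039). In WT cells Got1 was read at 275 and 278 CPM when starved and 30.6 and 29.5 CPM when fed, a 9.18-fold rise (3.2 ± 0.039). Got1 ranked 200 from the top of the 14418 genes in KO-labelled and 211 in WT starvation. Got2, the mitochondrial enzyme, was read at 413 and 406 CPM in starved against 229 and 236 CPM in fed KO-labelled libraries (1.76-fold, 0.82 ± 0.031). In WT libraries Got2 stood at 585 and 598 CPM when starved and 293 and 307 CPM when fed (1.97-fold, 0.98 ± 0.031). A processed pseudogene of Got2 (Got2-ps1) is annotated in GRCm38, and Gm45760 overlaps it on the opposite strand, so its counts are uncertain to that extent. The starved Got1 levels of the genotypes were not called different (-0.04 ± 0.033, adjusted p = 0.329), and this became a called -0.1 with RLE size factors and with DESeq2 and a called 0.28 with library totals.

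Per kilobase of transcript, which allows genes to be compared, Got1 stood at 0.81 ± 0.013 of the level of Got2 in starved KO-labelled and 0.575 ± 0.0034 in starved WT cells (mean ± SD, n = 2 libraries each). The ratio was 0.131 ± 0.0041 in fed KO-labelled and 0.123 ± 0.007 in fed WT cells. Such ratios are taken within a library and do not depend on the scaling. The fed ratios of the genotypes met at 0.128, the lowest value in KO-labelled and the highest in WT libraries, whereas the starved ratios did not overlap.

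Gpt2, which hands glutamate nitrogen to pyruvate to form alanine, rose 7.57-fold in KO-labelled cells (2.92 ± 0.051), with 110 and 108 CPM in starved against 14.8 and 14 CPM in fed libraries. In WT it rose 4.35-fold (2.12 ± 0.047), with 157 and 146 CPM when starved and 34.5 and 35.1 CPM when fed. The levels of KO-labelled libraries lay below those of WT libraries in both states, by -1.27 ± 0.056 on the log2 scale when fed and -0.47 ± 0.043 when starved. Gpt, the cytosolic form, was low, with 4.43 and 3.89 CPM in starved and 5.66 and 4.91 CPM in fed KO-labelled libraries, against 0.952 and 2.24 CPM in starved and 5.54 and 5.15 CPM in fed WT libraries. It fell in WT (-1.74 ± 0.24), and its change in KO-labelled cells was not called (-0.35 ± 0.19), though it was with library totals (-0.61). Gpt2 made up 92.8 ± 0.51% of the summed level of Gpt and Gpt2 per kilobase in starved KO-labelled cells and 97.9 ± 1.3% in starved WT cells. Its share was 57.3 ± 1.4% in fed KO-labelled and 76.2 ± 1.1% in fed WT cells.

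Asns, whose promoter window matched both runs of letters, had the highest level per kilobase of the 8 members in starved cells of each genotype. It was read at 499 and 512 CPM in starved against 80.1 and 81.9 CPM in fed KO-labelled libraries, a 6.24-fold rise (2.64 ± 0.032). In WT libraries it was read at 762 and 758 CPM when starved and 112 and 107 CPM when fed, a 6.92-fold rise (2.79 ± 0.033). KO-labelled libraries lay below WT libraries by -0.44 ± 0.033 when fed and -0.59 ± 0.03 when starved. Asnsd1, a gene with an asparagine synthetase domain, moved little by comparison (0.26 ± 0.052 in KO-labelled and 0.32 ± 0.055 in WT starvation). With totals these became 0, not called, and a called -0.14. Asrgl1, an asparaginase that removes the amide nitrogen again, fell in both genotypes (-0.64 ± 0.12 and -0.69 ± 0.12).

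Aldh18a1 opens the route from glutamate to proline and ornithine. Its levels were 443 and 446 CPM in starved against 67 and 68.2 CPM in fed KO-labelled libraries, a 6.58-fold rise (2.72 ± 0.033). In WT they were 537 and 556 CPM when starved and 172 and 167 CPM when fed, a 3.22-fold rise (1.69 ± 0.031). The fed KO-labelled level was thus 2.51-fold below the fed WT level (-1.33 ± 0.033), and the starved groups differed by -0.3 ± 0.03, which became 0.02 and no call (adjusted p = 0.612) with library totals. Both deposited rows of Aldh18a1 held nearly the same counts, with totals of 101428 and 101427 over the libraries, so its 2 transcripts cannot be told apart.

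Pycr1, the last enzyme of proline synthesis in mitochondria, moved in opposite directions in the genotypes. It rose 4.82-fold in KO-labelled cells (2.27 ± 0.089), with 30.1 and 27.6 CPM in starved against 5.75 and 6.22 CPM in fed libraries. In WT it fell (-0.44 ± 0.089, 1.35-fold lower), with 13.9 and 13 CPM when starved and 18.5 and 17.9 CPM when fed. The libraries of no group overlapped those of another. KO-labelled cells accordingly stood 3.04-fold below WT cells when fed (-1.61 ± 0.092) and 2.14-fold above them when starved (1.1 ± 0.085). Pycr1 had the lowest count of any member in a library, 313 in a fed KO-labelled one, and reached 1458 in a starved KO-labelled one.

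**Figure D3:**
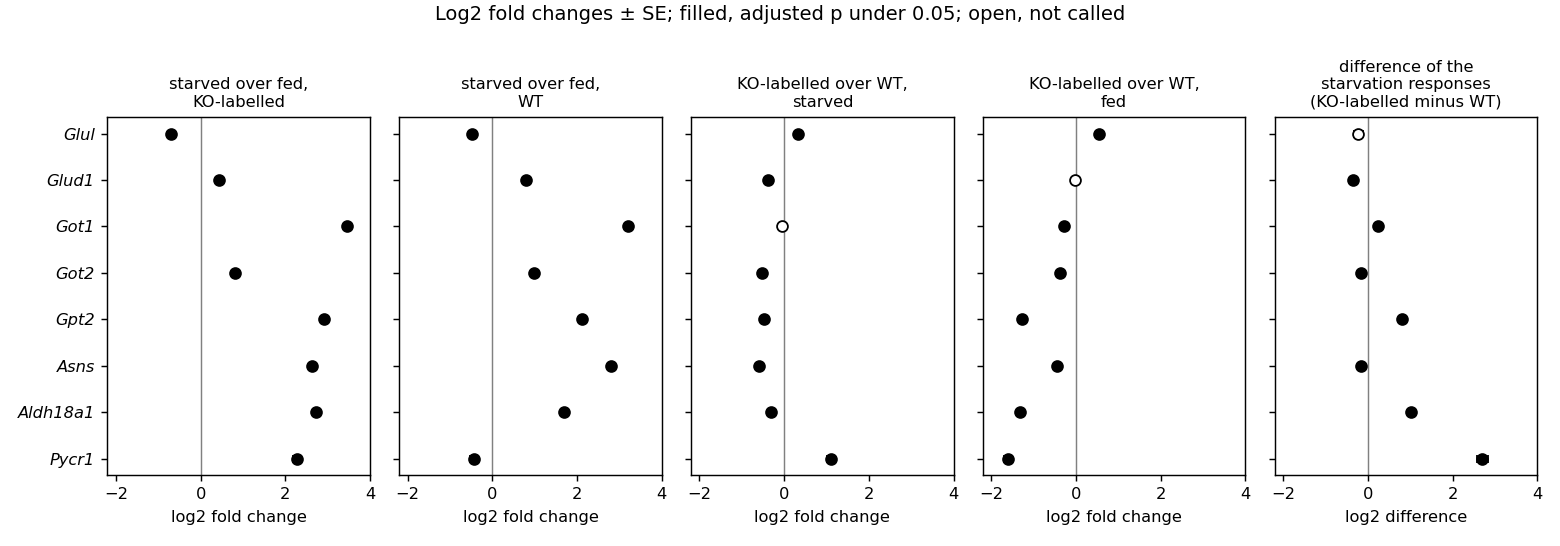
Log2 fold changes (x axes) of the 8 genes in the 4 comparisons and the difference of the starvation responses, with bars for the SE, mostly shorter than the symbol; filled symbols are called at an adjusted p under 0.05 and open ones are not. Got1 lies farthest to the right in both starvation panels (3.45 and 3.2), and Pycr1 lies at 2.27 in KO-labelled and -0.44 in WT starvation.

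Pycrl, the cytosolic relative of Pycr1, rose in KO-labelled cells (0.58 ± 0.045), and in WT it differed by 0.05 ± 0.048 (adjusted p = 0.314), which became a called -0.4 with library totals and a called 0.12 with RLE size factors.

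**Figure D4:**
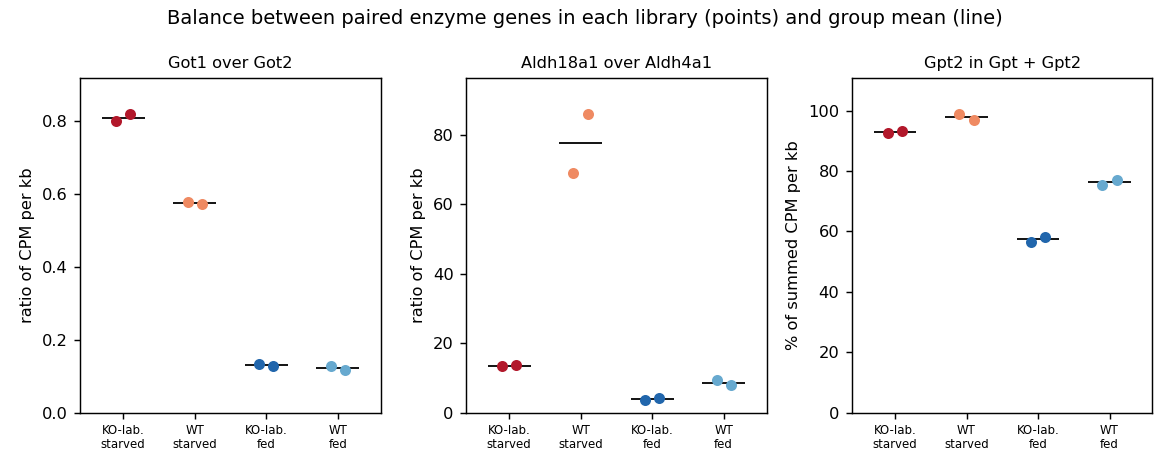
Ratios of, and shares in, levels per kilobase of transcript within each library (points; y axes from 0), with the group mean as a line, for paired or related enzyme genes. Got1 over Got2 was 0.81 and 0.575 in starved against 0.131 and 0.123 in fed KO-labelled and WT cells, and Aldh18a1 over Aldh4a1 reached 77.5 in starved WT cells.

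Fed KO-labelled cells held less RNA of most members than fed WT cells. Of the 8, 6 were lower, 1 (Glul) was higher and 1 (Glud1) was not called, beside 74.4% of all tested genes called, 39.8% lower and 34.5% higher. More than 2-fold lower were 11.2% of genes and more than 2-fold higher 12.5%. Pycr1, Aldh18a1 and Gpt2 were the 3 members lower by more than 2-fold, while Asns (-0.44), Got2 (-0.37 ± 0.031) and Got1 (-0.28 ± 0.044) differed less. The members' median was -0.4 and that of all genes -0.06. In starved cells 5 members were lower in KO-labelled than in WT libraries (Asns, Got2 at -0.53 ± 0.03, Gpt2, Glud1 and Aldh18a1), 2 were higher (Pycr1 and Glul) and Got1 was not called. The background there was 79.6% called, 37.7% lower and 41.9% higher, with 12.5% lower and 21.8% higher by more than 2-fold, the size that Pycr1 alone reached. With library totals the members' count became 3 lower and 3 higher. The higher calls over all genes were 67.4% of calls with totals and 52.6% with TMM.

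The difference between the starvation responses, tested as an interaction, was called for 7 members, 4 with a higher and 3 with a lower response in KO-labelled cells, beside 64.5% of all genes, 34.1% higher and 30.4% lower (15.4% and 6.57% by more than 2-fold). Pycr1 differed most (2.7 ± 0.13), followed by Aldh18a1 (1.03 ± 0.044) and Gpt2 (0.8 ± 0.07), the same 3 genes that were lowest in fed KO-labelled relative to fed WT cells; the interaction holds those fed libraries too. Got1 differed by 0.25 ± 0.055, a call that ended without starved WT replicate 1 (0.11) or replicate 2 (0.12). Glud1 responded less in KO-labelled cells (-0.35 ± 0.046). The small differences of Got2 (-0.16 ± 0.043) and Asns (-0.15 ± 0.044) turned to 0.04 and 0.05, neither called, with library totals, and that of Asns was not called without fed WT replicate 2 (-0.11). Glul differed by -0.22 ± 0.097 (adjusted p = 0.0564), which passed with RLE size factors and DESeq2 (-0.32 in each). Over all genes the higher calls were 67% of calls with totals and 52.9% with TMM.

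Compared per kilobase of transcript, the order of the members differed between fed and starved cells. In starved KO-labelled cells Asns stood first (253 ± 4.7 CPM per kilobase), then Got2 (162 ± 2), Got1 (131 ± 0.45), Aldh18a1 (126 ± 0.56), Glud1 (87.6 ± 0.75), Gpt2 (30 ± 0.45), Pycr1 (9.89 ± 0.61) and Glul (8.16 ± 0.22). Starved WT cells had Asns (380 ± 1.5), Got2 (234 ± 3.5), Aldh18a1 (155 ± 3.8), Got1 (134 ± 1.2), Glud1 (114 ± 4.4), Gpt2 (41.6 ± 2), Glul (6.47 ± 0.39) and Pycr1 (4.62 ± 0.22). Got2 and Glud1 led in fed cells of both genotypes, with 91.8 ± 2.1 and 64.7 ± 1.3 in KO-labelled and 119 ± 3.7 and 66 ± 1.4 CPM per kilobase in WT cells, and Asns came next. Among the 28 pairs of neighbours in these orders the libraries of the pair overlapped in 0. Transcript lengths are those of GENCODE M21 for the matching RefSeq accession and may not be the transcripts these cells make.

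Across the 8 libraries some members resembled each other closely and others did not. Likeness was measured as the Euclidean distance between profiles of log2(CPM + 0.5), each centred on its own mean. The nearest members were Gpt2 and Aldh18a1 (distance 0.48) and Glud1 and Got2 (0.56), then Asns and Gpt2 (0.884) and Got1 and Asns (1.01). Pycr1 had no member nearer than Got2 at 1.98, and Glul none nearer than Glud1 at 1.91. Among all other tested genes, Gpt2 lay nearest to Eif4ebp1 (0.433), a repressor of translation initiation, and Odc1 (0.447), the enzyme that starts polyamine synthesis from ornithine. Aldh18a1 lay nearest to the same pair (Odc1 0.343, Eif4ebp1 0.373). The gene nearest to Asns was Setd6 (0.41), that nearest to Pycr1 Kcnq1ot1 (0.648), to Got2 Rpl19 (0.102) and to Glul Bag2 (0.13). Glud1 lay at 0.128 from both Olfr460 and Nudc, but Olfr460 had 0 to 11 counts per library, where the pseudocount of 0.5 CPM sets the profile.

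Other enzymes of glutamate, glutamine, aspartate, asparagine and proline were counted from a list of 16. Of these 13 were tested, and Got1l1, Prodh2 and Gad1 were too low. The list was wide: it held Psat1, of serine synthesis, and P4ha1 and P4ha2, which act on proline within proteins. Psat1, P4ha1 and P4ha2 rose in KO-labelled starvation (1.39, 0.59 and 0.87). In WT Psat1 and P4ha1 rose (1.15 and 1.33) and P4ha2 fell (-0.36). In KO-labelled starvation 8 rose and 2 fell, beside 39.4% of all tested genes called higher and 40.3% lower. In WT 5 rose and 5 fell, beside 36.7% higher and 44.8% lower. Their median was 0.58 in KO-labelled and 0 in WT cells, beside -0.02 and -0.17 over all tested genes; the 0 is the fitted value of Aspg, which had no counts in WT libraries, and without Aspg the WT median was -0.15. With library totals the counts were 7 higher and 4 lower in KO-labelled and 3 higher and 9 lower in WT cells, with medians of 0.33 and -0.4.

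Genes around proline also parted. Aldh4a1, which completes the breakdown of proline to glutamate and so opposes Aldh18a1, rose in KO-labelled cells (0.9 ± 0.084), with 31.9 and 31.1 CPM when starved and 17.8 and 15.9 CPM when fed. In WT it fell (-1.48 ± 0.11), with 7.46 and 6.21 CPM when starved and 17.9 and 20.2 CPM when fed. The ratio of Aldh18a1 to Aldh4a1 per kilobase was 13.5 ± 0.32 in starved against 3.86 ± 0.36 in fed KO-labelled cells. In WT cells it was 77.5 ± 12 when starved and 8.59 ± 0.92 when fed. Oat, which links ornithine to the proline precursor, stood at 456 and 462 CPM in starved against 164 and 162 CPM in fed KO-labelled libraries (1.49 ± 0.031). In WT libraries it stood at 135 and 132 CPM when starved and 119 and 123 CPM when fed (0.14 ± 0.034), a rise that became a called -0.32 with library totals. Prodh, the first enzyme of proline breakdown, had at most 1.62 CPM in a library and was not called in either genotype, though in WT it was with library totals (-1, adjusted p = 0.0299).

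**Figure D5:**
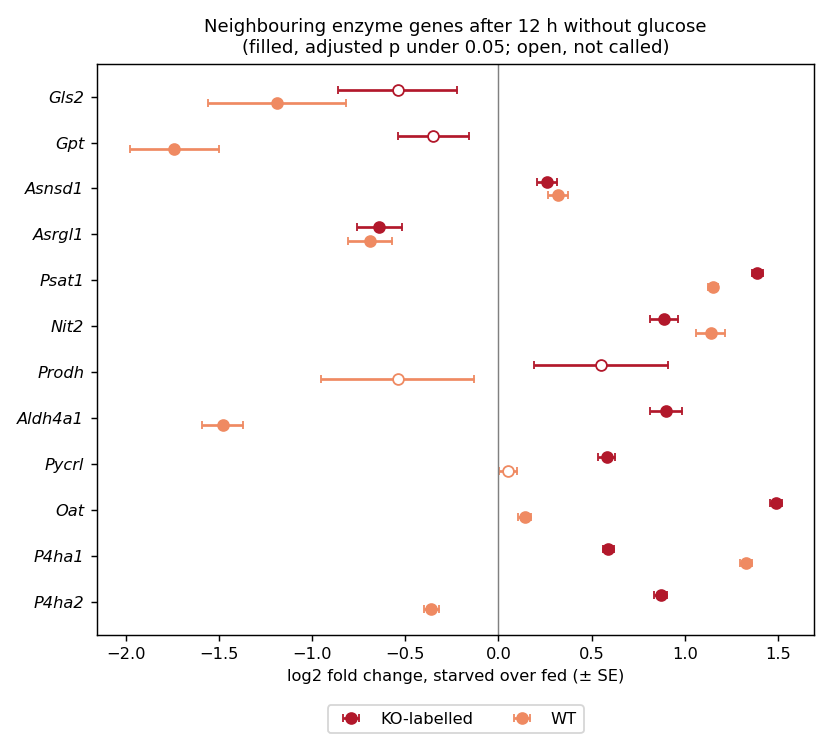
Log2 fold change ± SE of starved over fed cells (x axis) for 12 genes of the list of other enzymes, Psat1, P4ha1 and P4ha2 among them. KO-labelled cells are red and WT cells orange, with open symbols where not called. Aspg, with 0 counts in WT cells, is left out. Aldh4a1 lies at 0.9 in KO-labelled and -1.48 in WT cells, and Oat at 1.49 and 0.14, the last -0.32 with library totals.

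Glutamine is also spent by amidotransferases, which move its amide nitrogen into nucleotides and amino sugars. The list of 10 genes held 9 of these and Cps1, a carbamoyl phosphate synthetase that uses free ammonia and was not called in either genotype. With library totals Cps1 was called lower in starved WT cells (-2.26), on 6 counts in starved and 28 in fed WT libraries. In KO-labelled starvation 5 rose and 4 fell, with a median of 0.59 without Cps1, which had 0 counts there (0.3 with its fitted 0). In WT the list had 6 higher and 1 lower (median 0.6), and under library totals 4 higher and 3 lower (median 0.14). The shares of all tested genes were 39.4% higher and 40.3% lower in KO-labelled starvation (median -0.02). In WT they were 36.7% higher and 44.8% lower (median -0.17). Cad, which opens pyrimidine synthesis, rose in both (1.55 ± 0.037 and 1.03 ± 0.037). Ctps, which makes CTP, fell in KO-labelled cells (-0.24 ± 0.032) and rose in WT (1.06 ± 0.032).

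Among 16 tested carriers of glutamine, glutamate, aspartate and proline 8 rose and 6 fell in KO-labelled and 8 rose and 7 fell in WT starvation (medians 0.29 and 0.18). With library totals 7 rose and 6 fell in KO-labelled and 5 rose and 9 fell in WT cells (medians 0.05 and -0.28). Over all tested genes 39.4% were called higher and 40.3% lower in KO-labelled, and 36.7% higher and 44.8% lower in WT starvation. Slc3a2, the heavy chain shared by several amino acid exchangers, rose most in KO-labelled cells (4.31 ± 0.031). Slc38a2, a glutamine importer, fell in KO-labelled cells (-1.08 ± 0.031) and rose in WT (0.69 ± 0.031). Of the 5 partners of Got1 and Got2 in the malate-aspartate shuttle, 3 rose and 2 fell in KO-labelled and 1 rose and 3 fell in WT cells. The WT counts became 1 higher and 4 lower with library totals, and 1 higher and 2 lower with RLE size factors. Slc25a12, an aspartate-glutamate carrier, fell in both (-2.52 ± 0.057 and -0.53 ± 0.053) while Got1 rose. Slc25a13, the other such carrier, also fell in both (-0.95 ± 0.077 and -1.42 ± 0.094). Mdh2, mitochondrial malate dehydrogenase, rose in both (0.55 ± 0.028 and 0.79 ± 0.029).

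Most genes of the ATF4 axis rose in starvation, beside 39.4% of all tested genes called higher in KO-labelled and 36.7% in WT cells. Of 11 genes, 10 rose in KO-labelled and all 11 in WT starvation (medians 2.2 and 2.19), or 9 and 10 with library totals, where Cebpb fell in KO-labelled cells. Atf4 itself stood at 568 and 578 CPM in starved against 150 and 150 CPM in fed KO-labelled libraries (1.94 ± 0.028). In WT it stood at 909 and 898 CPM when starved and 229 and 227 CPM when fed (1.98 ± 0.028). Atf4 was lower in KO-labelled than in WT cells in both states (-0.61 ± 0.028 when fed and -0.66 ± 0.027 when starved). Its responses differed by -0.05 ± 0.039 (adjusted p = 0.292), with a called -0.15 under RLE size factors and a called 0.15 under library totals. Over the 11 genes the response difference was called higher for 2 and lower for 6 (5 and 4 with library totals), from 0.37 ± 0.078 for Eif2ak3 to -2.81 ± 0.091 for Atf3. RNA levels of Atf4 do not measure its protein, which is controlled in translation. The part of ATF4 in the changes of the members was not tested.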

How the data were processed

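The deposited file is a table of raw read counts for 31055 RefSeq transcript rows, which the authors left unscaled. TopHat2 2.0.9, bedtools and build mm9 are named in the submitters' processing notes, without roles; strand and filters are not stated there. A further 4 sample columns had no matching label and stayed out, and no row lacked a gene name. Members and gene lists were chosen with earlier results of these data known, so they are not independent of them. A few genes of the pathways are not reported here, and the counts of other enzymes leave them out.

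The counts, 1 row per symbol, were tested in edgeR 4.0.16 (R 4.3.3) with TMM scaling, filterByExpr, a separate mean for each group fitted to the 8 libraries together (leaving 4 residual degrees of freedom). Its quasi-likelihood p-values were adjusted by Benjamini-Hochberg, with a threshold of 0.05. The common biological coefficient of variation was 0.0341. Each SE is the size of the log2 change divided by the root of its F. Replicates differed by more than sampling noise (chi-square per degree of freedom 3.37 to 6.21). The fit was tested on simulated data in which few genes changed. Most genes were called in the real comparisons, so the simulation cannot test the scaling. Named genes were the 8 members, their paralogs and same-step enzymes, Atf4, Ddit3 and the nearest profiles. Cad, Ctps, Slc3a2, Slc38a2, Slc25a12, Slc25a13, Mdh2, Cebpb, Atf3 and Eif2ak3 were chosen as list examples after their values were seen. Alternatives were RLE factors, library totals, DESeq2 1.42.0, other filters, summed isoforms, a replicate block, only the groups compared, and each library left out.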

Additional observations from a re-analysis of the deposited data

Results flagged for a closer look

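Starvation responses that differed between the genotypes, by the interaction test of edgeR, were singled out for 7 members and 5 other named genes. Values are log2 differences, KO-labelled minus WT response, each from 2 libraries per group. Pycr1 (2.7, adjusted p = 1.15e-13) and Aldh4a1 (2.38) each rose in KO-labelled and fell in WT cells, with no overlap between starved and fed libraries of a genotype, whereas Aldh18a1 (1.03), Gpt2 (0.8), Oat (1.35; its WT rise became a called -0.32 with library totals) and Ddit3 (0.28), the stress factor CHOP, rose in both genotypes and by more in KO-labelled cells. In the same test 2 of the 11 genes of the ATF4 axis, Ddit3 among them, were called higher and 6 lower. With library totals these counts were 5 and 4. Got1 (0.25, and from 0.11 to 0.45 over the alternatives) also rose in both. Glud1 (-0.35), Got2 (-0.16) and Asns (-0.15) rose in both and by less in KO-labelled cells. With library totals the differences of Got2 and Asns turned to 0.04 and 0.05, neither called. Pycrl (0.53) rose in KO-labelled cells and was not called in WT, and Gpt (1.39) fell in WT and was not called in KO-labelled cells. Of all tested genes, 64.5% passed the same test, and genotype cannot be told apart from the sex of the cells.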

How the results depend on the processing

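Starvation directions and calls of all 8 members were kept under every alternative run. Over all comparisons 608 of the members' alternative values kept direction and call. A further 11 turned direction, and some of these gained or lost a call as well. Among values that kept direction but not call, 9 gained a call and 4 lost one. With library totals, 3397 genes were called higher in starved WT cells, 2 members were higher in fed KO-labelled cells, 3 lower in starved KO-labelled cells and 1 had a lower response. With totals the starved KO-labelled minus WT difference became 0.28 for Got1 and 0.02 for Aldh18a1, and the response difference 0.04 for Got2 and 0.05 for Asns. The fed Glud1 difference, not called with TMM, turned to 0.01 with RLE factors and with DESeq2, 0.02 with at least 5 CPM in 2 libraries, 0.03 with only the 2 groups compared and 0.09 with totals, and ran from -0.05 to 0.03 with single libraries left out. Leaving out starved WT replicate 1 or 2 gave called starved Got1 differences of -0.11 and -0.09 and called Glul response differences of -0.28 and -0.41. The cause was not tested. Replicate numbers do not pair the libraries (correlations of deviations from -0.026 to 0.02), and the fit with the replicate block changed no member's call: 7 rose and 1 fell in KO-labelled and 6 rose and 2 fell in WT starvation. With 2 libraries per group and 4 residual degrees of freedom, the spread rests on few samples. The fit also draws each gene's spread toward that of genes of similar level, so small p-values do not rest on that gene's libraries alone.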
